A study of Rattus norvegicus with 16 samples.

Results

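The miR-379 to miR-410 cluster is the distal block of microRNAs (miRNAs) in the imprinted Dlk1-Dio3 region of rat chromosome 6. Its members were taken by name, as every rat miRNA on the array whose number is one of the 31 that the cluster is known to hold, from miR-379 to miR-410, with both arms of a hairpin kept where the array carried both. This gave 36 mature miRNAs measured by 98 probes, of 350 miRNAs and 938 probes on the array. Of the 31 numbers 27 were on the array, and 4 (miR-654, miR-666, miR-667 and miR-679) were not. By the positions that the array files give on the rn4 assembly, the probes' targets lay at chr6:134388219-134425147, a stretch of 36929 bases, and 9 hairpins were measured on both arms.

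The cluster is transcribed from the maternal chromosome as a long non-coding RNA, from which the many hairpins are cut, so its miRNAs are often found together. It is expressed mostly in brain, where neuronal activity raises its transcription through the factor Mef2 in rat neurons. Several members act at synapses. In rat hippocampal neurons miR-134 limits the size of dendritic spines through Limk1, miR-485 lowers the synaptic vesicle protein SV2A, and miR-329, like miR-134, is needed for dendrites to grow with activity. In the RefSeq annotation of the newer GRCr8 assembly all 33 members found there lay inside 2 long non-coding RNA genes. LOC102555254 at chr6:134349619-134558975 held 15 of them, from miR-379 to miR-376b-3p, and LOC120103623 at chr6:134559128-134586223 held the other 18, from miR-376a* to miR-410.

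The arrays measured total RNA of whole hippocampus from male Sprague-Dawley rats, 24 h after lateral fluid percussion, a fluid pulse to the exposed dura that models traumatic brain injury (TBI), or after no injury. There were 16 one-colour Agilent arrays in 6 groups. The uninjured groups were naïve rats without any procedure (3 arrays) and sham-injured rats (2 arrays), and the injured groups were TBI alone (3 arrays) and TBI with 1 of 3 drugs named in the labels as PMI (3 arrays), JM6 (3 arrays) and E33 (2 arrays). Per the series' design each array is a separate biological sample, and the drugs' doses are not given in the sources used here. The arrays lay on 2 slides of 8, each scanned on its own. Slide 1 held naïve, TBI and TBI+PMI 1 and 2, and slide 2 held sham, TBI+JM6, TBI+E33 and TBI+PMI 3. Groups were therefore compared within a slide. Only the fit of the difference between the 2 slides' injury comparisons took arrays of both slides. Untreated TBI was compared with naïve rats, treated TBI with sham rats, and no comparison had untreated TBI beside sham. Of 9 neuron miRNAs on the array, such as miR-124 and miR-128, 6 to 8 were detected on each array. TBI+PMI 1 and sham 1 stood apart on markers of choroid plexus and ependyma, and naïve 2 on those of vessels, so the main counts and medians are also given without them. Whole tissue was measured, so that fewer cells of a type and less of a miRNA per cell cannot be told apart.

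The mature sequences of 33 of the 36 members were found in RefSeq (GRCr8, plus strand), and miR-543, miR-381 and miR-377 were not matched. The sequences of the members on which the results turn are printed 5′ to 3′, with the seed, bases 2 to 8, in capitals, because the seed does most of the pairing with target mRNAs. The first set holds the 7 members that fell with PMI against naïve on slide 1. It also holds miR-379*, which was among the 3 members with the lowest difference between TBI and naïve.
miR-379: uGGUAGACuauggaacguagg
miR-379*: cUAUGUAAcaugguccacuaac
miR-411: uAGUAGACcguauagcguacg
miR-758: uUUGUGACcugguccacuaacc
miR-376b-5p: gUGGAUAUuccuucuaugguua
miR-485: aGAGGCUGgccgugaugaauuc
miR-154: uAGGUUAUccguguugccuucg
miR-369-5p: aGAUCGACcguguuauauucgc
The second set holds the 3 members that rose against sham on slide 2. The arm that the array calls miR-543* is miR-543-3p in RefSeq.
miR-494: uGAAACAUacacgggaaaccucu
miR-543*: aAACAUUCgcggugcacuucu
miR-541: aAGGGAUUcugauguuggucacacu
The third set holds the miR-376 group, near copies of each other whose pri-miRNAs are known to be edited from A to I in human and mouse brain, and the 3 members with a neuronal role that are not in the sets above.
miR-376c: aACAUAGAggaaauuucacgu
miR-376b-3p: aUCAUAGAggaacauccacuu
miR-376a: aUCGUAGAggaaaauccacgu
miR-134: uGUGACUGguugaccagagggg
miR-329: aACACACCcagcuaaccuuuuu
miR-495: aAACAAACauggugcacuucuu

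The 33 sequences had 33 distinct seeds, so that no 2 of these 33 members share one. Counted from the 5′ end of the first named, the seeds of miR-379 and miR-411 differ by 1 base (G2A), and so do those of miR-376c and miR-376b-3p (A2U), miR-376b-3p and miR-376a (A4G), and miR-543* and miR-382* (A3U). Rat miRNAs that are not among the members measured share the seed of 5 of them. These are miR-362-3p (that of miR-329), miR-741-5p (miR-376c), miR-376c-5p (miR-376b-5p), miR-344b-1-3p (miR-410) and miR-299b-5p (miR-299). Of these, miR-376c-5p is the other arm of the miR-376c hairpin, so it belongs to the cluster but was not on the array. The stretch that the miR-381 probe reads lies whole within miR-300-3p, so a signal of that probe could not be told from miR-300-3p. The miR-381 probe was detected on 2 arrays, while miR-300-3p was detected on all 16.

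All levels below are log2 of an array's signal for the brightest probe of a miRNA, minus the 75th percentile on that array of the 284 probes that were detected on every array. A value of 0 is thus the level of a fairly bright probe, and values below -6.74 were set to that floor. Probes differ in brightness at equal amounts, so a level is compared only with the same member on another array. Of the 36 members 21 were well above background on all 16 arrays (of all miRNAs, 161 of 350), 13 on some, and 2, miR-323* and miR-412, on none. Between 21 and 34 members were detected per array, and no spot was saturated.

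For 4 members known from neurons or placed among such members the array gave little. miR-134 was at the floor on 14 of 16 arrays, with a brightest probe of 12 bases, and was well above background on 4. miR-381, which with miR-134 and miR-329 is needed for dendrite growth in rat neurons, was at the floor on all 16 arrays and well above background on 2. miR-380 was well above background on 6 arrays and miR-543 on 6, also near the floor. No fold is given for these, since both groups lay at or near the floor in each comparison.

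After TBI the cluster stood lower than in naïve hippocampus as a list, with small differences that did not pass the test singly. Means were lower after TBI for 22 of 24 tested members (91.7%) and for 97 of all 171 tested miRNAs (56.7%). The median difference of the members was -0.23 on the log2 scale, against -0.05 over all 171. A member is tested where it was well above background on all arrays of either group, and it can enter through the group where it is high. Over the 21 members well above background on every array of the slide, 19 were lower, with a median of -0.21 against -0.04 over 161 miRNAs. By limma with Benjamini-Hochberg adjustment over all 171, 0 members passed an adjusted p of 0.05, as did 0 of 171 miRNAs (0.0%). At an unadjusted p under 0.05, 10 members were lower (41.7%) and 0 higher, where 25 of 171 were lower (14.6%) and 13 higher (7.6%). The 2 groups of arrays did not overlap for 13 members, all lower in TBI, which is 54.2% of the members beside 19.3% of all tested miRNAs. These 13, and the 10 before them, include miR-379* and miR-758, detected on 3 of 3 naïve but 2 of 3 TBI arrays. They entered through the group where they were high.

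miR-379, the member at the start of the cluster, was -1.58, -1.70 and -1.58 on the naïve arrays and -2.05, -1.94 and -2.06 on the TBI arrays. All 3 TBI values lay under all 3 naïve values. The means were -1.62 ± 0.07 and -2.02 ± 0.07 (SD, n = 3 each), a difference of -0.40 ± 0.09 (SE) or 1.32-fold lower, with a limma adjusted p of 0.135. The other arm of the same hairpin, miR-379*, was -4.41, -4.72 and -4.62 in naïve and -5.07, -4.82 and -5.19 in TBI, where it was detected on 2 of 3 arrays. These groups did not overlap either, and the difference was -0.44 ± 0.13 (limma adjusted p 0.157), but 0.01 when the background was modelled with normexp. miR-411, whose seed differs from that of miR-379 by G2A, was -2.86, -3.16 and -3.03 in naïve and -3.36, -3.28 and -3.29 in TBI, again without overlap (-0.29 ± 0.10, limma adjusted p 0.172).

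miR-758, known to lower the cholesterol exporter ABCA1 in human and mouse cells, was -4.66, -4.51 and -4.54 in naïve and -5.10, -4.96 and -4.90 in TBI. The groups did not overlap and the difference was -0.42 ± 0.09, or 1.33-fold lower, with a limma adjusted p of 0.135, the lowest among the members and shared with miR-379. miR-758 was detected on 2 of 3 TBI arrays, so it entered the test through the naïve group, where it was high. miR-376b-5p had the lowest difference of all members. It was -2.56, -2.52 and -2.60 in naïve and -3.26, -2.74 and -3.15 in TBI, so that the TBI arrays were far more spread (SD 0.27 against 0.04) but all lower. The difference was -0.49 ± 0.14, or 1.41-fold lower (limma adjusted p 0.157). Without TBI 2, the array nearest to naïve, it was -0.65 and was the only member to pass the test.

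Among the members with a neuronal role, miR-485 was -3.96, -4.12 and -4.02 in naïve and -4.45, -4.33 and -4.17 in TBI. All TBI values were lower, by -0.28 ± 0.10 (limma adjusted p 0.180), although with normexp the difference was 0.00. The edited miR-376a was 0.00, -0.04 and 0.10 in naïve and -0.47, -0.10 and -0.27 in TBI, also without overlap (-0.30 ± 0.11, limma adjusted p 0.191). For miR-495, which lowers Bdnf in mouse brain, the groups overlapped, with -1.64, -1.39 and -1.27 in naïve and -1.61, -1.51 and -1.68 in TBI (-0.17 ± 0.12). miR-329 lay between -0.81 and -0.62 in naïve and between -0.84 and -0.72 in TBI, a difference of -0.07 ± 0.09, which was 0.00 with 2 other settings.

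The 3 highest of the tested members were miR-494, miR-323 and miR-376c. miR-494 was -1.62, -1.63 and -1.75 in naïve and -0.78, -1.94 and -1.92 in TBI. A single array, TBI 1, was high and the other TBI arrays were below all naïve arrays, so that the difference of 0.12 ± 0.30 became -0.26 without TBI 1. TBI 1 was also the TBI array with the lowest summed leukocyte markers (-0.75, against -0.07 and -0.01 for the other 2), and their part in the value was not tested. miR-323 differed by 0.07 ± 0.10, which was -0.04 without scaling, and miR-376c by -0.04 ± 0.11, which was between 0.01 and 0.14 with 4 other ways of taking the signal. At an unadjusted p under 0.05 and a fold over 1.2, the methods' t-test called 8 members, all lower (miR-154, miR-376b-5p, miR-379, miR-379*, miR-411, miR-485, miR-541 and miR-758), of 16 lower miRNAs (9.36% of those tested), and 0 of the 16 held after Benjamini-Hochberg adjustment. Of the 8, miR-379* and miR-758 entered through the naïve group, where they were high. The count rested on how the values were made, and was 0 without scaling, 2 with normexp or a percentile taken over all probes, 3 by quantile normalization and in the authors' table, 4 with the total gene signal, 6 with signals summed over probes and 7 with the probe that the array lists, all lower.

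**Figure D1:**
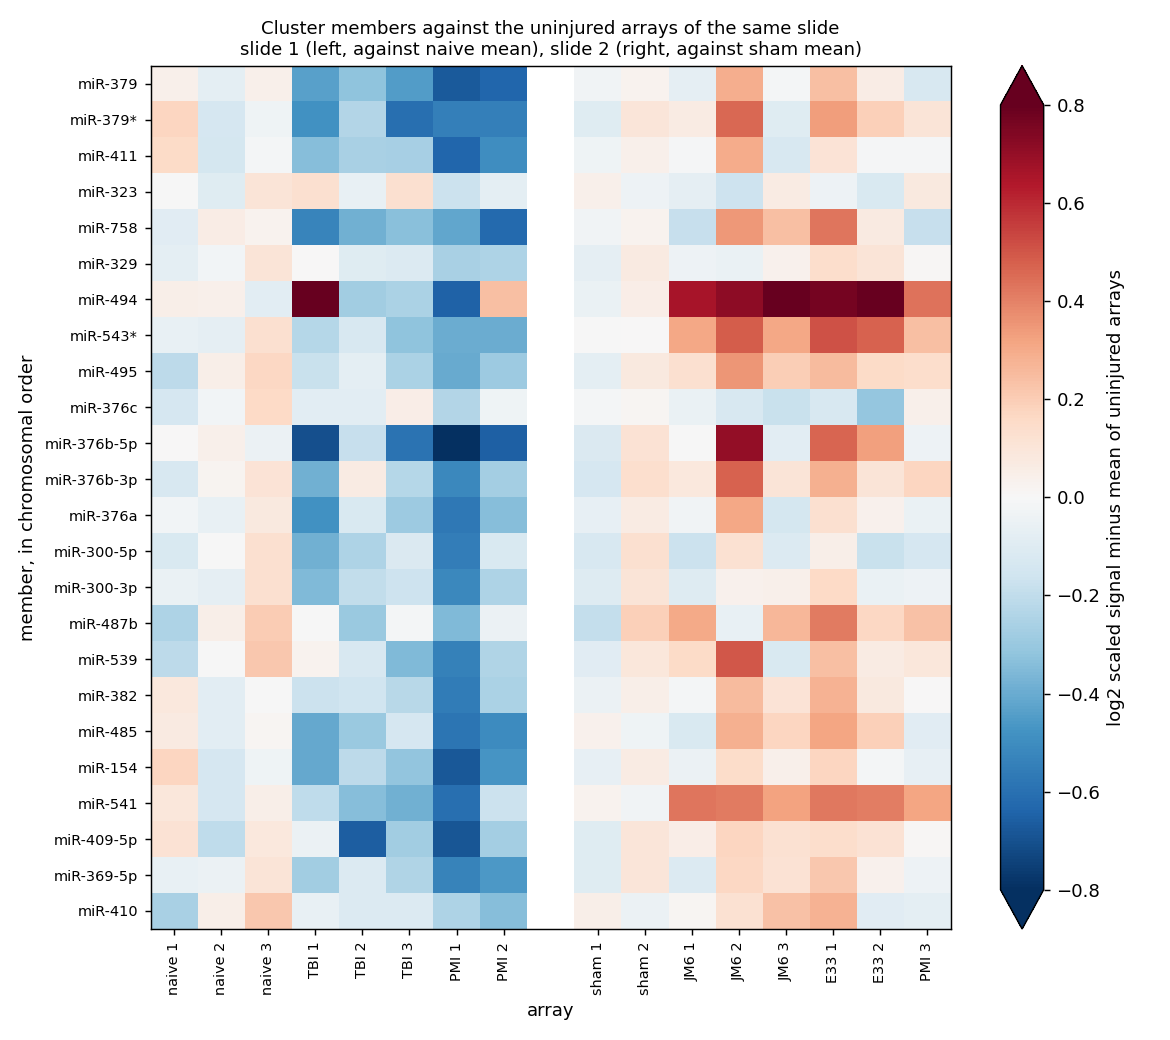
Log2 scaled signal of 24 members (rows, in chromosomal order) on each of the 16 arrays (columns), minus the mean of the uninjured arrays of the same slide (naïve on slide 1, sham on slide 2). Blue is lower and red is higher, with the colours cut at 0.8 in each direction. The TBI and PMI columns of slide 1 are mostly blue, and on slide 2 the rows of miR-494, miR-543* and miR-541 are red in all JM6 and E33 columns.

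With TBI and PMI, 7 members of the cluster fell against naïve. All 24 tested members had a lower mean in TBI+PMI (1 and 2, the arrays on slide 1), where 67.4% of all 178 tested miRNAs did, with median differences of -0.40 and -0.12. The 21 members above background on every array were also all lower (median -0.39). By limma, 7 members passed an adjusted p of 0.05, all lower, which is 29.2% of the members beside 8.43% (15 of 178) of all tested miRNAs. The groups did not overlap for 18 members, all lower, beside 33.7% of all tested miRNAs. These 18 include miR-379* and miR-758, detected on 1 of 2 PMI arrays, which entered through the naïve group, where they were high. miR-758 is also among the 7. The naïve arrays are the same as in the TBI comparison, so the 2 results are not independent of each other.

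miR-379 was -2.29 and -2.25 with PMI, below the naïve arrays and also below the 3 TBI arrays. It fell by 0.65 ± 0.10 against naïve, or 1.57-fold (limma adjusted p 0.0264). miR-376b-5p was -3.42 and -3.21, and fell 1.69-fold (-0.76 ± 0.16, limma adjusted p 0.0407). Both PMI arrays were lower than every naïve array for these members and for the other 5 that fell. miR-154 was -1.34, -1.64 and -1.54 in naïve and -2.19 and -1.98 with PMI (-0.57 ± 0.13, limma adjusted p 0.0416).

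miR-411 was -3.65 and -3.51 with PMI and fell by 0.57 ± 0.12 against naïve (limma adjusted p 0.0407). miR-485, the regulator of SV2A, was -4.62 and -4.54 and fell by 0.54 ± 0.11 (limma adjusted p 0.0407). miR-758 was -4.99 and -5.20, detected on 1 of the 2 PMI arrays, and fell by 0.52 ± 0.11 (limma adjusted p 0.0407). The last of the 7 was miR-369-5p, from the hairpin next to the end of the cluster, which read -1.62, -1.61 and -1.46 in naïve and -2.10 and -2.03 with PMI (-0.50 ± 0.10, limma adjusted p 0.0407).

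These calls rested on few arrays. The number of members called was 0 without naïve 1, naïve 3, TBI 3 or TBI+PMI 1, and 1 (miR-379) without naïve 2 or TBI+PMI 2. It was also 0 with normexp, with quantile normalization, without scaling, with a percentile over all probes or with the total gene signal, while all 7 kept a lower mean under each of these settings. TBI+PMI 1 stood apart on markers of choroid plexus and ependyma, whose 7 miRNAs summed to 3.04 on the log2 scale there, against 0.55 on TBI+PMI 2 and -0.47 to 1.52 in naïve. Of that list miR-204, miR-34b and miR-34c were detected on all 16 arrays, miR-211 on 5 and miR-449a on 1. Without TBI+PMI 1 the members' median was -0.28, with -0.03 over all tested miRNAs.

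Between TBI+PMI and TBI all 22 tested members had a lower mean with PMI, where 130 of 176 tested miRNAs did (73.9%), with medians of -0.19 and -0.09. By limma 0 members passed an adjusted p of 0.05, as did 0 of 176 miRNAs (0.0%), and 4 members were lower at an unadjusted p under 0.05 (18.2%) beside 12 of 176 (6.82%). The direction rested on the scaling, since without it the members' median was 0.19 and that of all miRNAs 0.29, so that the members stood below the others in both. Without TBI+PMI 1, 16 of 22 members had a lower mean, with a median of -0.10 against 0.01 over all miRNAs. The lowest were miR-494 (-0.32 ± 0.38), miR-369-5p (-0.29 ± 0.10) and miR-411 (-0.28 ± 0.12), and the highest miR-541 (-0.08 ± 0.15), miR-300-5p (-0.09) and miR-376c (-0.09 ± 0.12). All 6 of these were above 0 without scaling, and those of miR-494, miR-376c, miR-300-5p and miR-541 also changed sign when single arrays were left out.

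**Figure D2:**
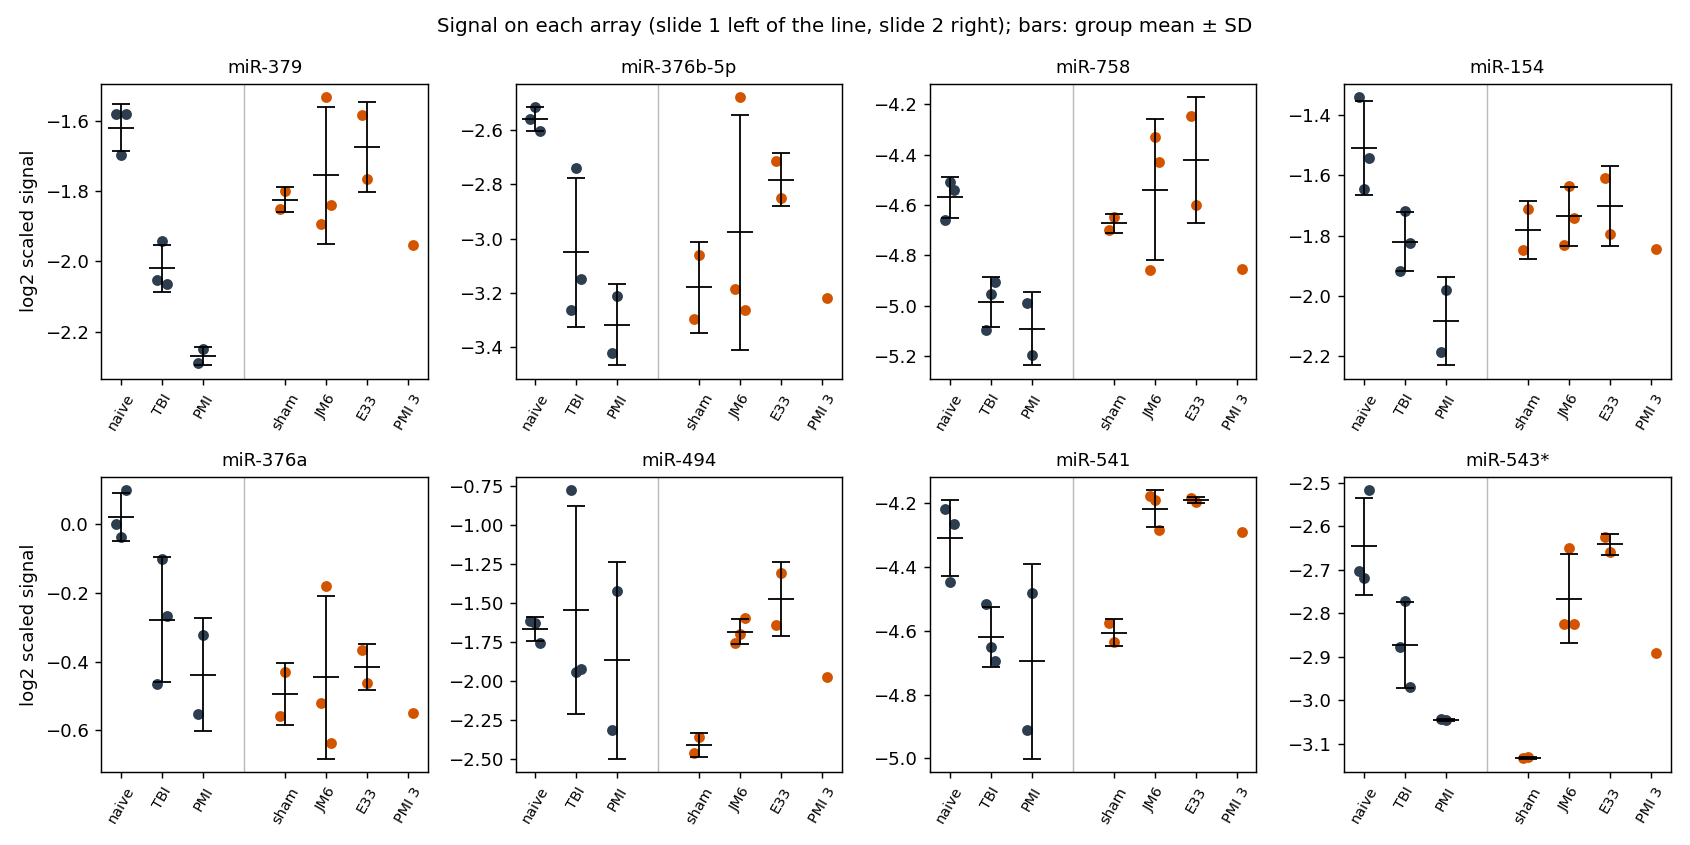
Log2 scaled signal of 8 members on each array. Points are arrays (slide 1 left of the line in each panel, slide 2 right), and bars show the group mean and SD over 2 or 3 arrays, while TBI+PMI 3 is a single array. The TBI and PMI points of miR-379, miR-758 and miR-154 lie below all naïve points, and the JM6 and E33 points of miR-494, miR-541 and miR-543* lie above both sham points.

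On slide 2 the injured rats had been treated with JM6 or E33, and against sham rats the cluster leaned the other way. With the 2 treatments pooled as the mean of the group means, 5 arrays against 2, 29 of 33 tested members had a higher mean (57.0% of all 230 tested miRNAs did) and 4 a lower mean, with a median difference of 0.12 against 0.04 over all miRNAs. Leaving aside 3 members near the floor (miR-134, miR-380 and miR-543), 26 of 30 were higher, with a median of 0.16. Among these 30, miR-376a* and miR-369-3p were detected on all 5 treated arrays but on 1 of 2 sham arrays. They entered the test through the group where they were high. Without scaling the members' median was -0.18 and that of all miRNAs -0.31, so the sign of the median depends on the scaling while the members stayed above the rest. By limma 3 members rose, which is 9.09% of the members beside 5.65% (13 of 230) of all tested miRNAs. The treated and sham arrays did not overlap for 5 members with higher values (15.2%), a share close to that of all tested miRNAs (14.3%).

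miR-494 was -2.46 and -2.36 on the sham arrays, -1.75, -1.70 and -1.60 with JM6, and -1.64 and -1.31 with E33. Every treated array was above both sham arrays. The difference was 0.83 ± 0.11, or 1.78-fold higher (limma adjusted p 0.0123), the highest of all tested members. miR-541, known to restrain neurite growth through synapsin I in rat PC12 cells, was -4.58 and -4.64 in sham, -4.18, -4.19 and -4.28 with JM6, and -4.18 and -4.20 with E33. The treated arrays lay close together and above sham, by 0.40 ± 0.06 or 1.32-fold (limma adjusted p 0.0157).

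miR-543*, whose mature form lowers N-cadherin in mouse neural progenitors, was -3.13 and -3.13 in sham, -2.83, -2.65 and -2.82 with JM6, and -2.63 and -2.66 with E33. It rose by 0.43 ± 0.07, or 1.35-fold (limma adjusted p 0.0186), again with all 5 treated arrays above both sham arrays. These calls turned on single arrays. Without sham 1, 0 members passed the test, and without sham 2 only miR-541 did, while without E33 1, and likewise without E33 2, only miR-494 did. The 3 differences kept their sign in all of these. Without scaling 0 members passed, and the differences were 0.47 for miR-494, 0.04 for miR-541 and 0.07 for miR-543*. With normexp 0 passed as well.

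miR-379, miR-376b-5p, miR-758 and miR-485, which were lower on slide 1, did not stand low here. miR-379 was -1.85 and -1.80 in sham, -1.89, -1.53 and -1.84 with JM6, and -1.58 and -1.77 with E33, so that the groups overlapped (0.11 ± 0.12, but -0.25 without scaling and -0.03 in the authors' table). miR-376b-5p was -3.30 and -3.06 in sham, -3.19, -2.48 and -3.26 with JM6, and -2.71 and -2.85 with E33 (0.30 ± 0.23). JM6 2 was the highest array for both members and JM6 3 lay near sham. miR-758 differed by 0.19 ± 0.17 and miR-485 by 0.18 ± 0.12, and without scaling they were at -0.17 and -0.18.

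Of the other members with a neuronal role, miR-495 was -1.73 and -1.57 in sham and between -1.52 and -1.30 on the 5 treated arrays, without overlap (0.22 ± 0.09, limma adjusted p 0.256, but -0.14 without scaling). miR-376a differed by 0.06 ± 0.13 and miR-329 by 0.05 ± 0.06, each below 0 with 3 other settings of the signal. The lowest members were miR-299 (-0.20 ± 0.07, limma adjusted p 0.167), miR-376c (-0.17 ± 0.07, limma adjusted p 0.285) and miR-323 (-0.07 ± 0.08), whose differences were 0.19, 0.14 and 0.03 with normexp.

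Each drug was also set against sham by itself, with the same 2 sham arrays in both comparisons. With JM6, 26 of 32 tested members had a higher mean than in sham, beside 53.8% of all 225 miRNAs, with medians of 0.12 and 0.02, and miR-494 (0.73 ± 0.12, limma adjusted p 0.0232) and miR-541 (0.39 ± 0.07, limma adjusted p 0.0291) rose. These 2 are 6.25% of the members, beside 5.33% of all miRNAs. With E33, 28 of 32 had a higher mean, beside 58.4% of all 226 miRNAs, with medians of 0.15 and 0.04, and miR-494 (0.94 ± 0.13, limma adjusted p 0.0157), miR-543* (0.49 ± 0.08, limma adjusted p 0.0382) and miR-541 (0.42 ± 0.07, limma adjusted p 0.0382) rose. These 3 are 9.38%, beside 3.54% of all miRNAs. The E33 and sham arrays did not overlap for 15 members with higher values (46.9%), beside 32.7% of all miRNAs. These 15 include miR-376a* and miR-369-3p, detected on both E33 arrays but on 1 of 2 sham arrays. They entered through the group where they were high, as they did among the 32 tested with JM6. Without scaling miR-541 (-0.08) and miR-543* (-0.01) were not above sham with E33. Without sham 1 or without sham 2, 0 members passed with either drug, and 0 passed with JM6 without JM6 3 and with E33 without E33 2.

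Set directly against each other, JM6 and E33 gave no difference that passed the test in 33 tested members. By limma 0 members passed, and 0 had an unadjusted p under 0.05, beside 7 of 230 miRNAs (3.04%), and 0 of 230 (0.0%) passed after adjustment. The arrays of the 2 drugs did not overlap for miR-329 alone, at -0.63, -0.64 and -0.55 with JM6 and -0.45 and -0.49 with E33 (-0.14 ± 0.07, limma adjusted p 0.940), beside 6.96% of all miRNAs that were lower with JM6 without overlap. The differences, JM6 minus E33, ran from -0.21 for miR-494 to 0.16 for miR-377. The 95% intervals of 28 members lay within 0.5 in either direction and those of all 33 within -0.80 and 0.48, so that differences of up to that size remain possible. No dose or structure of these compounds was given in the sources used here.

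**Figure D3:**
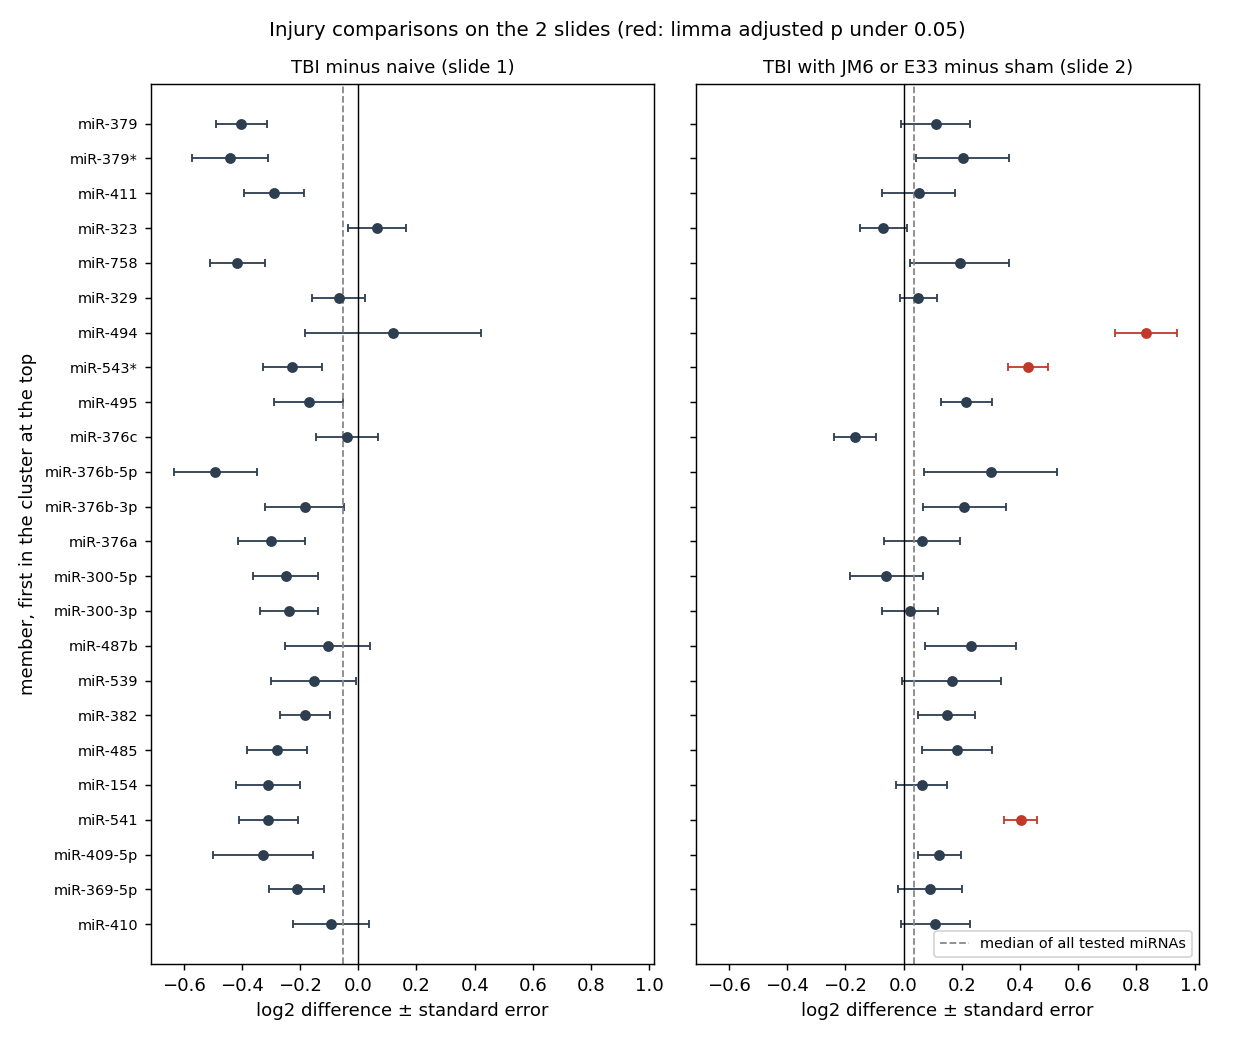
Log2 difference with its standard error of 24 members, in chromosomal order, for TBI minus naïve on slide 1 (left) and for TBI with JM6 or E33 minus sham on slide 2 (right). The dashed line is the median of all tested miRNAs, and red marks members with a limma adjusted p under 0.05. On the left 22 points are below 0, and on the right the red points are miR-494 (0.83), miR-543* (0.43) and miR-541 (0.40), while the sign of the smaller differences on the right turns without scaling.

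The 2 injury comparisons share no array, and 24 members were tested in both. Of these, 20 were lower in TBI than in naïve and higher in treated TBI than in sham (83.3%), where 55 of 171 miRNAs showed that pair of signs (32.2%). miR-376c and miR-300-5p were lower in both, miR-494 was higher in both, and miR-323 was higher on slide 1 and lower on slide 2. Without sham 1 that pair of signs was found for 15 members (62.5%, beside 25.7% of all miRNAs), and without naïve 2 for 20. The signs on slide 2 turn without scaling, where most members fell below 0. Across members the sizes on the 2 slides had a Pearson r of 0.09 and a Spearman rho of -0.16 (n = 24 members, which share arrays and in part hairpins).

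The difference between the 2 comparisons was fitted over all 171 miRNAs with arrays of both slides in 1 fit. Of the members 2 passed (8.33% of the members, beside 2.34% of all). miR-541 was -4.22, -4.45 and -4.27 in naïve and -4.51, -4.65 and -4.69 in TBI, all lower, while on slide 2 it was higher in all treated arrays. The comparisons differed by -0.71 ± 0.11 (limma adjusted p 0.0117). miR-543* was -2.70, -2.72 and -2.52 in naïve and -2.88, -2.77 and -2.97 in TBI, and here the comparisons differed by -0.65 ± 0.12 (limma adjusted p 0.0183). At an unadjusted p under 0.05, 11 of the 24 members had a lower value in the slide 1 comparison (45.8%), beside 13.5% of all miRNAs. The 11 include miR-379* and miR-758, which entered on slide 1 through the naïve group, where they were high. Without sham 1 or without sham 2 the number passing was 0, and without TBI 3 or TBI+E33 1 only miR-541 passed. The contrasts are not matched. Drug treatment, the kind of uninjured control and the slide changed together, and their parts cannot be told apart.

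The level of the cluster relative to all miRNAs on the array showed where the uninjured groups stood. Over the members' median, after subtracting each miRNA's mean over all 16 arrays and the median of all miRNAs, the naïve arrays were at 0.11 to 0.23 and the sham arrays at -0.11 to -0.04. TBI lay at -0.11 to 0.03, TBI+PMI 1 and 2 at -0.15 to -0.14, TBI+JM6 at -0.08 to 0.14 and TBI+E33 at 0.01 to 0.12. The naïve arrays thus lay above the TBI, PMI and sham arrays and overlapped the JM6 and E33 arrays, and the sham arrays overlapped the TBI arrays. Of the 24 members 19 were higher in naïve than in sham, with a median of 0.19, while 73 of 171 miRNAs were, with a median of -0.08. Without sham 1 it was 16 members, with a median of 0.10, and without naïve 2 it was 19, with a median of 0.21. Naïve and sham lay on different slides, so the sham procedure and the slide cannot be told apart.

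TBI+PMI 3 was the only array of its group on slide 2, where it was the only injured array with PMI. Against the sham mean 11 of the 24 members were below and the median was 0.00, from -0.18 for miR-758 to 0.43 for miR-494. The 2 PMI arrays on slide 1 had member medians of -0.54 and -0.28 against naïve, with 24 and 23 of 24 members below. The PMI arrays thus stood below naïve on slide 1 and around sham on slide 2.

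**Figure D4:**
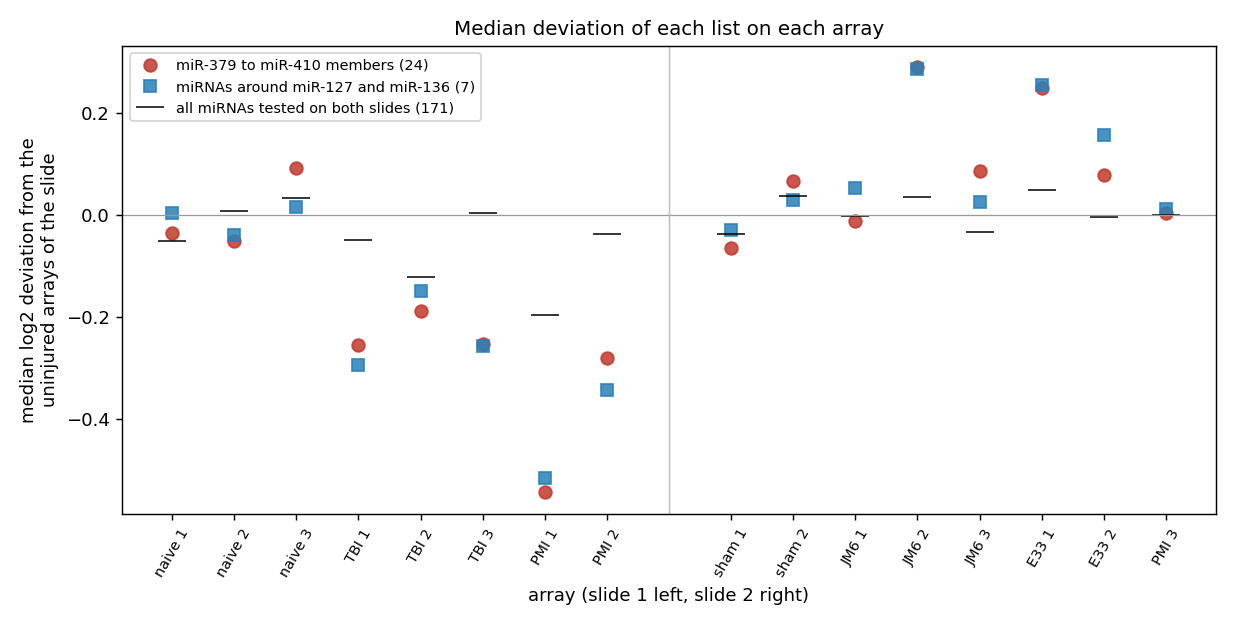
Median log2 deviation of each array from the mean of the uninjured arrays of its slide, for 24 members (circles), 7 miRNAs of the proximal part of the Dlk1-Dio3 region (squares) and all 171 miRNAs tested on both slides (dashes). The TBI circles lie at -0.26, -0.19 and -0.25 and the PMI circles at -0.54 and -0.28, while on slide 2 the JM6 and E33 circles lie between -0.01 and 0.29 and PMI 3 is at 0.00.

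The miRNAs of the proximal part of the same imprinted region, around miR-127 and miR-136, which are not members, were set beside the cluster. Of the 12 on the array 7 were tested in TBI minus naïve, 6 had a lower mean and 0 passed, with a median of -0.30. With PMI 3 fell against naïve (miR-127, miR-433 and miR-434), with a median of -0.48. On slide 2 7 of 8 were higher in treated TBI than in sham, with a median of 0.17 and 0 passing. On each injured array of slide 1 their median was below 0, as was the members' (the plot of medians by array). For the neuron miRNAs the medians were -0.17 for TBI minus naïve, -0.23 for PMI minus naïve and -0.04 for treated TBI minus sham, and their summed level on slide 1 was 4.98 to 5.18 in naïve, 4.84 to 4.96 in TBI and 4.56 to 4.88 with PMI. Their part in the members' values was not tested.

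Markers of other cells varied between the arrays of slide 1, with 0 passing in TBI or TBI+PMI against naïve. The 4 vessel miRNAs summed to 2.12 on naïve 2 and to between 0.68 and 1.12 on the other 15 arrays, and the 3 tested were lower in TBI than in naïve (median -0.24) with 0 passing. On naïve 2 the choroid plexus and ependyma list was also the highest of the naïve arrays (1.52). Without naïve 2 the members' median in TBI minus naïve was -0.26, with 22 of 24 lower and 0 passing. The leukocyte miRNAs summed to between -0.74 and -0.43 in naïve, to -0.75, -0.07 and -0.01 on TBI 1, 2 and 3, and to -0.82 and 0.12 on TBI+PMI 1 and 2. Of these miR-142-3p differed by 0.89 in TBI (limma adjusted p 0.205) and miR-223 by 2.35 with PMI (limma adjusted p 0.177). miR-150, of the same list, went the other way, at -0.20 in TBI (limma adjusted p 0.218) and -0.37 with PMI (limma adjusted p 0.0834). The part of these markers in the members' values was not tested.

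On slide 2 some such markers did pass in treated TBI minus sham. All 4 leukocyte miRNAs had a higher mean in treated TBI than in sham, and miR-223 (3.57, limma adjusted p 0.0026) and miR-142-3p (1.33, limma adjusted p 0.0157) rose. Their summed level was -0.82 to -0.55 in sham and -0.08 to 0.43 in the treated arrays, and all 4 were detected on each treated array. The choroid plexus and ependyma list summed to 2.59 on sham 1 and 0.49 on sham 2, against -0.21 to 0.10 in the treated arrays. Without sham 1 the members' median was 0.07 and 23 of 33 members had a higher mean. The 4 tested oligodendrocyte miRNAs, of 5 on the array, had lower means in treated TBI, with a median of -0.28 and 0 passing. The part of these cells in the members' values was not tested.

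Across arrays the members varied together more than with other miRNAs. After the mean of each group on its slide was subtracted, the 210 pairs among the 21 members detected on all arrays had a median Pearson r of 0.35 over 15 arrays, and 77.6% of them were positive. Pairs of a member with a proximal Dlk1-Dio3 miRNA had a median r of 0.35 too. Pairs of a member with any miRNA outside the cluster, the proximal ones included, had 0.13, and pairs without a member 0.18. The members share arrays, a scaling and in part hairpins, and the values describe these arrays only. The closest pair was miR-376a and miR-376b-5p (r 0.92), whose hairpins are neighbours on the chromosome. miR-376a had the highest median r with the other members (0.59). The members least like the others were miR-494 (-0.07) and miR-323 (0.03), the same that were higher after TBI on slide 1.

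The 2 arms of a hairpin come from 1 precursor, and 3 hairpins had both arms tested on both slides. In TBI minus naïve the arms of miR-379 differed from naïve by -0.40 and -0.44, those of miR-300 by -0.25 and -0.24, and those of miR-376b by -0.49 (5p) and -0.18 (3p). On slide 2 the same arms were at 0.11 and 0.20, -0.06 and 0.02, and 0.30 and 0.21. The arms were thus close for miR-379 and miR-300 and farther apart for miR-376b on slide 1. For miR-379 this rested on the background setting, since with normexp miR-379 was -0.33 and miR-379* 0.01. miR-379* and miR-300-5p were each detected on 2 of 3 TBI arrays. Different probes of 1 miRNA gave the same sign for 13 of 13 members with several probes detected on all 16 arrays. This held in TBI minus naïve, in PMI minus naïve and in treated TBI minus sham. Such probes share nearly all of their bases, so agreement was likely from the start. Outside these 13 signs could differ, as for miR-376c in PMI minus naïve (0.04 for a probe detected on 12 arrays, -0.13 for the brightest).

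The differences showed little order along the cluster. In TBI minus naïve the 12 tested members nearest its start had a median of -0.20 and the 12 nearest its end -0.24, with a Spearman rho of 0.05 between position and difference over the 24. With PMI the medians were -0.40 for both, with a rho of 0.05. In treated TBI minus sham they were 0.15 for 16 members and 0.12 for 17, with a rho of 0.24 over 33 members. The seed neighbours did not all move alike. miR-379 and miR-411 were both lower on slide 1, while in the miR-376 group miR-376a (-0.30) and miR-376b-3p (-0.18) were lower and miR-376c (-0.04) was near naïve.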

How the data were processed

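Agilent rat miRNA arrays were scanned by the authors and read with Agilent Feature Extraction (version 9.5.3.1 per the file headers). The deposited intensity per spot (processed signal, background-subtracted) was averaged per probe over spots without outlier flags, leaving out control spots, scaled to the 75th percentile of the 284 probes detected on all arrays, floored and taken to log2. The deposited table of intensity values, scaled by the authors in GeneSpring by a factor per array whose kind is not stated, was taken to log2 as an alternative. A miRNA was represented by its brightest probe and tested where well above background on all arrays of a compared group, so a member can enter through the group where it is high. limma 3.58.1 (R 4.3.3) fitted each slide, two-sided, with Benjamini-Hochberg adjustment over all tested miRNAs. The fit within a slide was tested on simulated data drawn independently for each miRNA. The members varied together, so that test does not show how the fit performs on them. Named members were those singled out by the study, those of known neuronal role, those passing, and the 3 lowest and 3 highest per main comparison. Members, lists and tests were chosen with earlier results of these data known. The number of arrays limits the precision.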

Additional observations from a re-analysis of the deposited data

Results flagged for a closer look

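The injury comparisons of the 2 slides differed for 2 members by the test of the difference itself. TBI minus naïve less treated TBI minus sham was -0.71 ± 0.11 (SE) on the log2 scale for miR-541 (limma adjusted p 0.0117) and -0.65 ± 0.12 for miR-543* (limma adjusted p 0.0183), since both miRNAs were lower in all 3 TBI arrays than in all 3 naïve arrays and higher in all 5 treated TBI arrays than in both sham arrays. The groups compared also differ in drug, kind of control and slide, whose parts cannot be told apart. With normexp, quantile normalization, a percentile taken over all probes, no scaling or the authors' table neither passed.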

How the results depend on the processing

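The number of members passing the test changed with the settings. The members' median less that of all tested miRNAs moved by less than the spread between arrays under all settings run. In some comparisons that spread was larger than the value itself, so a move to 0 would have gone uncounted. These were JM6 minus sham (0.15 against 0.10), treated TBI minus sham (0.12 against 0.09) and JM6 minus E33 (0.14 against -0.02). The value ran from 0.03 to 0.19, 0.07 to 0.15 and -0.10 to 0.07 in these. For TBI minus naïve, 1 member passed in the authors' table (miR-758) and 1 with all 16 arrays fitted (miR-379), 8 were called by the methods' t-test, and the median was -0.11 with normexp. The methods' t-test itself, with settings chosen after seeing the data, called 2 with normexp or a percentile taken over all probes, 3 by quantile normalization or the authors' table, 4 with the total gene signal and 0 without scaling. For PMI minus naïve, 0 passed with normexp, quantile normalization, a percentile taken over all probes, no scaling or the total gene signal (a setting also chosen after seeing the data), 2 in the authors' table, 1 without a filter and 14 with all 16 arrays, and the median was -0.12 without scaling and -0.23 in the authors' table. For PMI minus TBI the median was 0.19 without scaling. For JM6 minus sham, 0 passed with normexp, quantile normalization, no scaling, the authors' table or all 16 arrays, 1 with a percentile over all probes, no filter or an intensity trend, and 4 with summed probes or the total gene signal, and the median was 0.46 with normexp. For E33 minus sham, 0 passed with normexp or no scaling, 1 with quantile normalization, a percentile taken over all probes, the authors' table, no filter, all 16 arrays or an intensity trend, and 5 with the total gene signal, and the median was -0.31 without scaling and -0.012 in the authors' table. For JM6 minus E33 the median was 0.27 with normexp and 0.23 without scaling. For treated TBI minus sham, 0 passed with normexp or no scaling, 1 in the authors' table or with all 16 arrays and 5 with the total gene signal (as for E33, among them miR-134, above background on neither sham array, so that its pass is not a result), and the median was 0.32 with normexp and -0.18 without scaling. For the difference between the 2 injury comparisons, 0 passed with normexp, quantile normalization, a percentile taken over all probes, no scaling or the authors' table, and 1 with the total gene signal. The cause of these changes was not tested. Scaling set the general level, and the median of all tested miRNAs without it was -0.15 for TBI minus naïve, 0.16 for PMI minus naïve, -0.19 for JM6 minus sham and -0.44 for E33 minus sham.

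Signs changed for members with small differences. In TBI minus naïve these were miR-379* (0.011) and miR-485 (0.0042) with normexp, miR-329 (0.0039 with a percentile over all probes, 0.0044 with the total gene signal), miR-376c (0.14 with normexp, 0.034 with a percentile over all probes, 0.020 in the authors' table, 0.012 with the total gene signal) and miR-323 (-0.035 without scaling). In PMI minus TBI, without scaling miR-494 was 0.058, miR-369-5p 0.094, miR-411 0.10, miR-376c 0.29, miR-300-5p 0.29 and miR-541 0.30. miR-376c was 0.0085 and miR-300-5p 0.022 in the authors' table, miR-376c 0.016 and miR-541 0.11 with the total gene signal, miR-300-5p 0.0006 and miR-541 0.013 with a percentile over all probes, and miR-541 0.043 with summed probes. In E33 minus sham, miR-541 was -0.082 and miR-543* -0.0078 without scaling. In treated TBI minus sham, miR-299 was 0.19, miR-376c 0.14 and miR-323 0.031 with normexp, and miR-329 -0.027 and miR-376a -0.014 with a percentile over all probes. Without scaling miR-329 was -0.31, miR-376a -0.30, miR-379 -0.25, miR-485 -0.18, miR-758 -0.17 and miR-495 -0.14, and in the authors' table miR-329 was -0.083, miR-376a -0.071 and miR-379 -0.026.

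With single arrays left out, the number passing was 0 to 1 for TBI minus naïve, 0 to 8 for PMI minus naïve, 0 for PMI minus TBI and for JM6 minus E33, 0 to 1 for JM6 minus sham, 0 to 3 for E33 minus sham, 0 to 4 for treated TBI minus sham and 0 to 3 for the difference between the comparisons. The medians ran from -0.26 to -0.18, -0.54 to -0.28, -0.27 to -0.10, 0.03 to 0.18 (JM6 minus sham), 0.059 to 0.25 (E33 minus sham), -0.10 to 0.03 (JM6 minus E33) and 0.07 to 0.20 (treated TBI minus sham), the first 3 in the order above. Signs changed in TBI minus naïve for miR-494 (-0.26 to 0.32) and miR-376c (-0.11 to 0.041), in PMI minus TBI for miR-494 (-0.77 to 0.12), miR-376c (-0.19 to 0.0061), miR-300-5p (-0.31 to 0.13) and miR-541 (-0.29 to 0.14), and in treated TBI minus sham for miR-329 (-0.019 to 0.12) and miR-376a (-0.0025 to 0.13).

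The main fits did not pair the arrays by replicate number. The deviations of same-numbered arrays correlated at -0.50 to 0.34 between groups. They are taken from means of 2 or 3 arrays, so they cannot show whether the arrays were paired. With the replicate block 2 members passed for PMI minus naïve, 0 for JM6 minus sham, 1 for E33 minus sham, 1 for treated TBI minus sham and 1 for the difference between the comparisons. Each group had 2 or 3 arrays, and members near the background have little range below them.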
